A study of Mus musculus with 12 samples.

Results

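The comparison set mouse embryonic stem (ES) cells at day 5 of doxycycline (Dox) withdrawal against the same cells at day 1, so that Dox was absent on both sides and what differed was the length of its absence. It used 6 of the 12 arrays of a time course, chosen by their labels alone, and covered all 19938 genes that had a probe set with a single gene symbol. Messenger RNA (mRNA) was read on Affymetrix Mouse Gene 1.0 ST arrays, and each value is a log2 signal, so that a difference of 1 is a 2-fold change. The day 5 group was 3 cultures of the line Esrrb_R without Dox for 5 days, and the day 1 group was 3 cultures without Dox for 1 day. Arrays of day 0, with 1 µg/ml Dox, and of day 3, without Dox, gave the time course around them.

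Esrrb_R is a single rescue clone in which the cells' own Esrrb is knocked down by a short hairpin RNA, and a tagged copy that escapes the hairpin is made while Dox is present. Every group carries both. The clone is kept on fibroblast feeders, and the methods state that the experiments were run on gelatin without feeders, in serum with Lif. There is no culture that kept its Dox for 5 days, so time in culture, the longer absence of Dox and the further fall of Esrrb cannot be told apart. The replicates are named as biological replicates, and p-values measure the spread between these arrays. In bulk RNA, fewer cells of a type and less RNA per cell cannot be told apart.

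ES cells are the cultured counterpart of the inner cell mass of the blastocyst, and they renew themselves through a network of transcription factors around Oct4 (encoded by Pou5f1), Sox2 and Nanog. Esrrb is an orphan nuclear receptor of the naive layer of that network, which marks the earliest pluripotent state and is lost as cells move toward the primed epiblast. Cells that leave pluripotency turn down naive genes at different speeds and turn on genes of the epiblast, the germ layers or the extraembryonic lineages, often together with changes of cell shape and adhesion.

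The 12 array medians lay between 7.28 and 7.35, replicates of a day correlated at 0.996 to 0.998 across genes. Of the 6 arrays compared, day 5 replicate 2 had the lowest array weight in limma (0.576, against 0.748 to 1.989 for the others). The markers Pou5f1, Sox2, Nanog and Zfp42 averaged 11.21 to 11.28 on the day 5 arrays, against 11.59 to 11.65 on the day 1 arrays. Within this average Nanog rose while Zfp42, Pou5f1 and Sox2 fell, as described below. Precision is limited by having 3 arrays a day. In simulated data of the same design, 200 of the 19938 genes were changed, and normal noise was drawn independently at the variances the model had estimated. The test recovered 89.6% of genes given a log2 change of 0.5 and 100% of those given a change of 1, with 19 false calls among the unchanged genes. Such data meet the assumptions of the test by design, and far fewer genes change in them than the 33% called in the real data. They do not show how the test behaves where its assumptions fail.

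Esrrb itself still fell between the 2 days. Its log2 signals were 8.15, 8.28 and 8.13 on the day 5 arrays, against 9.09, 9.15 and 9.16 on the day 1 arrays. No day 5 array overlapped a day 1 array, which was so for 45.5% of all genes. The difference was -0.94 (standard error 0.07, adjusted p = 5.6e-07 from limma with Benjamini-Hochberg adjustment over all genes), which is a 1.92-fold lower signal at day 5. Its day means were 11.59 with Dox and then 9.13, 8.20 and 8.19 at days 1, 3 and 5, so the fall in this comparison had been reached by day 3. An exact two-sided permutation test of the 6 values gave p = 0.1, the smallest that 3 arrays against 3 allow. Whether the probes read the endogenous or the exogenous copy was not examined.

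Differences between the 2 days were spread across much of the measured transcriptome. At an adjusted p under 0.05, 6584 genes were called (33% of those tested), of which 3094 genes were higher at day 5 (15.5%) and 3490 were lower (17.5%). Most of these differences were small. By more than 2-fold, 276 genes were higher (1.38%) and 198 were lower (0.993%), and the middle 50% of all genes lay between -0.15 and 0.11. The 3 day 5 arrays did not overlap the 3 day 1 arrays in 9066 genes (45.5%), among them 6467 of the 6584 genes called. More genes were called in the second interval than in the first. From day 1 to day 3, 1834 genes were called higher and 2317 lower, and from day 3 to day 5, 2601 higher and 2442 lower.

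**Figure D1:**
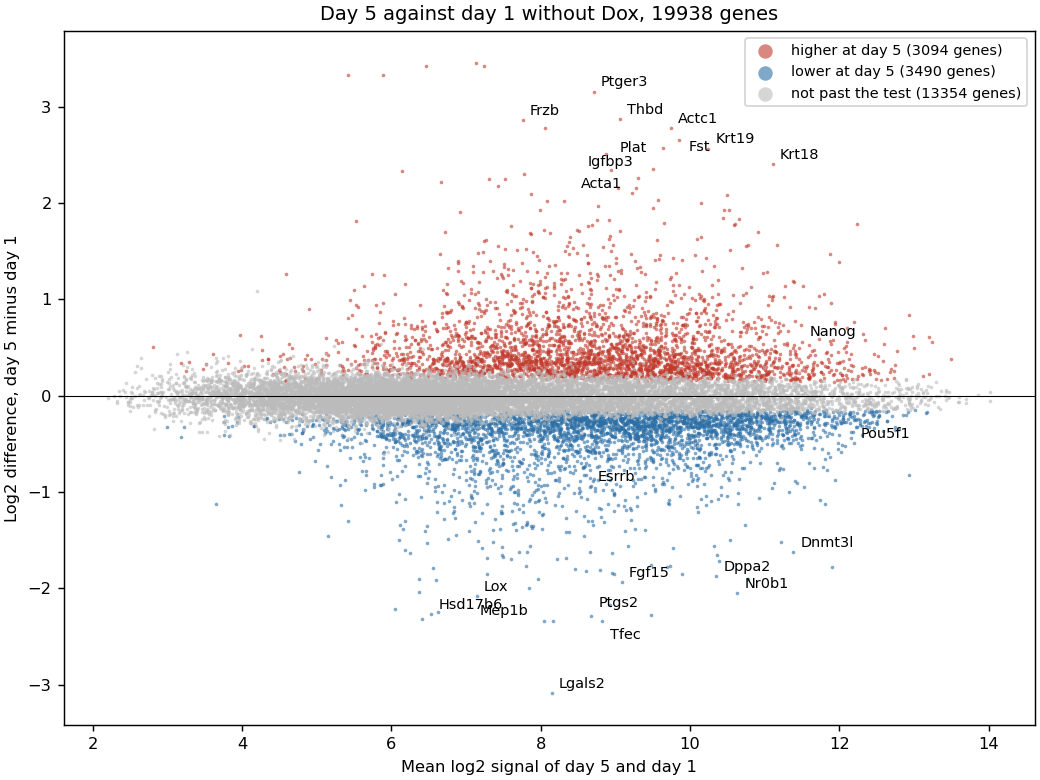
Log2 difference (day 5 minus day 1) against the mean log2 signal of each of 19938 genes, with called genes coloured by direction and the most changed genes named. More genes passed 2-fold upward (276) than downward (198), although more genes were called lower (3490) than higher (3094).

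The largest rises among annotated protein-coding genes were in receptors, secreted antagonists and the cytoskeleton. Ptger3, a receptor for prostaglandin E2, had log2 signals of 10.05, 10.40 and 10.41 at day 5, against 7.27, 7.13 and 6.99 at day 1. Its rise of 3.15 is 8.90-fold (standard error 0.14, adjusted p = 1.2e-08). Thbd, the thrombin receptor thrombomodulin, was measured at 10.20, 10.71 and 10.58 at day 5, against 7.58, 7.82 and 7.48 at day 1, a rise of 2.87. Most of each rise came after day 3. Ptger3 averaged 7.78 at day 3, 0.65 above day 1, and Thbd averaged 7.87, 0.24 above day 1.

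Secreted proteins formed the next group. Frzb, which binds Wnt ligands outside the cell, had signals of 8.99, 9.29 and 9.29 at day 5, against 6.29, 6.49 and 6.22 at day 1 (rise 2.86, standard error 0.12, adjusted p = 7.6e-09). Fst, the activin antagonist follistatin, was at 11.08, 11.24 and 11.23 at day 5, against 8.51, 8.64 and 8.43 at day 1. Its 6.30-fold rise had one of the smallest errors of the leading genes (2.66, standard error 0.08, adjusted p = 8.7e-10). Igfbp3, which binds insulin-like growth factors, rose by 2.35. Plat, the tissue plasminogen activator, had 10.69, 11.12 and 10.95 at day 5, against 8.43, 8.46 and 8.17 at day 1, a rise of 2.57.

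Structural genes of muscle and of simple epithelia stood beside them. Actc1, the cardiac actin, was measured at 11.55, 10.56 and 11.27 at day 5, against 8.34, 8.52 and 8.21 at day 1, and Acta1, the skeletal muscle actin, at 10.66, 10.19 and 10.48, against 8.10, 8.23 and 8.21. Their rises were 2.77 and 2.26. The actin genes are near copies of each other, so their probe sets may share signal. Krt19 and Krt18, keratins of simple epithelia, rose by 2.56 and 2.40, with day 5 arrays at 11.48 to 11.57 and 12.22 to 12.41, against day 1 arrays at 8.91 to 9.02 and 9.86 to 9.99 (adjusted p = 5.7e-10 for each). The other genes among the 15 largest rises were Ppp4r4, a regulatory subunit of protein phosphatase 4 (2.78), Fndc3c1 (2.51), the scavenger receptor Colec12 (2.34), Akr1c14, an aldo-keto reductase with close relatives (2.33), and the sulfatase Arsi (2.30).

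In several of these genes day 5 replicate 2 lay below the other day 5 arrays. Ppp4r4 had 9.98, 8.76 and 9.59 in day 5 replicates 1, 2 and 3, against 6.64 to 6.71 at day 1, and Colec12 had 10.50, 9.54 and 10.28, against 7.72 to 7.82. Over the 276 genes that rose by more than 2-fold, replicate 2 was the lowest day 5 array in 157, replicate 1 in 113 and replicate 3 in 6. The median distance of these genes from the day 1 mean was 1.29, 1.23 and 1.35 in replicates 1, 2 and 3.

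**Figure D2:**
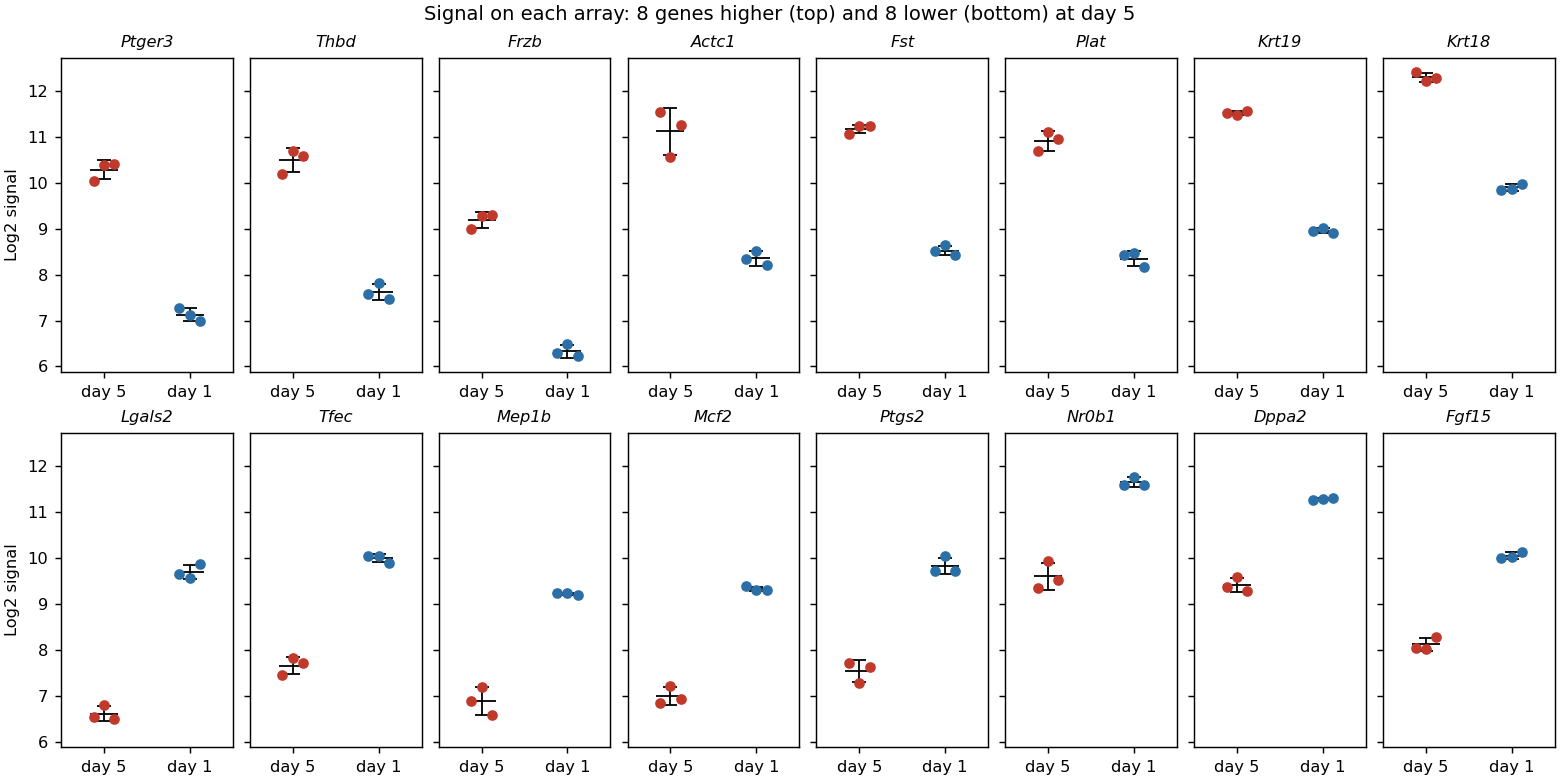
Log2 signal of 8 genes that rose and 8 genes that fell, with 1 point per array, the 3 day 5 arrays left of the 3 day 1 arrays, and the mean and SD of each day in black. The points of the 2 days do not overlap in any of the 16 panels. For every gene but Dppa2 this was a condition of the ranking it came from. Over all genes, 45.5% did not overlap.

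The 5 largest rises of all 19938 genes were in the precursors of the miR-302 and miR-367 cluster, which the ranking of annotated genes leaves out and which are named here after their values were seen. These microRNAs are known as markers of primed pluripotency and early embryonic cells. The 5 hairpins span 580 bases of chromosome 3. Sequences of mature 3p strands from RefSeq (build GRCm38.p6) are shown because their seeds, bases 2 to 8 in capitals, group them into families. A strand of miR-302a is not among those shown, so the grouping does not cover the whole cluster.
mmu-miR-302b-3p (chr3:127545275-127545297, plus strand): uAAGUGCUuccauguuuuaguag
mmu-miR-302d-3p (chr3:127545665-127545687, plus strand): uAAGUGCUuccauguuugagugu
mmu-miR-302c-3p (chr3:127545406-127545427, plus strand): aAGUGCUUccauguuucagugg
mmu-miR-367-3p (chr3:127545779-127545800, plus strand): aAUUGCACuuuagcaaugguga
The first pair share a seed, the listed 302c strand starts 1 base further on in the same run of letters, and miR-367 has a seed of its own.

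Mir302d was measured at 8.95, 8.61 and 9.01 at day 5, against 5.81, 5.23 and 5.17 at day 1. Its rise of 3.45 (standard error 0.17, adjusted p = 1.8e-08) is the largest of any gene tested. Mir302a rose by 3.42, Mir302c by 3.42, Mir302b by 3.33 and Mir367 by 3.33, with adjusted p values of 5.3e-07 or less. The 5 precursors moved in step across the days. The means of Mir302c at days 0, 1, 3 and 5 were 5.37, 5.53, 7.64 and 8.95, and those of Mir367 were 3.56, 3.75, 5.65 and 7.08. Day 5 replicate 2 was the lowest of the day 5 arrays in each precursor. The hairpins sit inside the span of Larp7, whose own difference was 0.18 (adjusted p = 0.035), a call that was lost under 10 of the 23 alternative ways of processing or testing the data. Of 291 other microRNA precursors tested, 10 were called higher and 20 lower, with differences between -0.73 and 0.72. These are smaller shares than the 15.5% higher and 17.5% lower over all genes. The arrays read precursor or host RNA and not the mature strands.

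The largest falls mixed genes of digestion, of steroid and prostaglandin metabolism, of the germline and of pluripotency. Lgals2, a galectin, had log2 signals of 6.54, 6.79 and 6.48 at day 5, against 9.66, 9.56 and 9.87 at day 1, an 8.51-fold fall (-3.09, standard error 0.11, adjusted p = 3.8e-09). It had been 7.92 on average at day 0 and 9.07 at day 3, so day 1 was its highest point. Tfec, a transcription factor of the Mitf family, Mep1b, a subunit of the protease meprin, and Mcf2 each fell by 2.34. Ptgs2, the inducible cyclooxygenase that makes prostaglandins, was at 7.71, 7.27 and 7.62 at day 5, against 9.72, 10.04 and 9.72 at day 1, and differed by -2.29. In contrast to Ptger3, it had reached its low level by day 3, where it averaged 7.18.

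Nr0b1 (Dax1), a repressor in the naive network, was the pluripotency gene with the largest fall. Its signals were 9.35, 9.93 and 9.53 at day 5, against 11.60, 11.77 and 11.58 at day 1 (-2.05, standard error 0.12, adjusted p = 7.9e-08). Fgf15, a fibroblast growth factor of the early embryo, was measured at 8.04, 8.02 and 8.28 at day 5, against 10.01, 10.02 and 10.14 at day 1, and differed by -1.94. It was 8.86 at day 0 and 9.73 at day 3, so most of its fall came after day 3. Morc1, a chromatin protein of male germ cells (-2.18), and Psma8, a testis subunit of the proteasome (-1.90), were also among the 15, with Rpl39l, a testis copy of a ribosomal protein, which averaged 6.84 at day 5 and 8.84 at day 1, Lrrc2 (-2.28), the hydroxysteroid dehydrogenase Hsd17b6 (-2.27) and the noncoding transcript Platr8 (-2.25).

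Lox, which cross-links collagen, and Cavin2, a coat protein of caveolae, were also among the 15, at -2.08 and -2.04. Lox had 6.17, 5.92 and 6.22 at day 5, against 8.16, 8.35 and 8.05 at day 1. Lox is also a fibroblast marker, and of the 16 fibroblast markers measured 3 were called higher (Acta2, Col5a1 and Vim), 4 lower (Lox, Col5a2, S100a4 and Thy1) and 9 neither way, with a median difference of 0.01. The calls for Vim and Thy1 were lost under 13 and 6 alternatives, and that for Col5a1 without day 5 replicate 1. The mean log2 signal of the list was 7.54 to 7.67 on the day 5 arrays and 7.73 to 7.74 on the day 1 arrays, and the log2 of its summed signal was 13.52 to 13.85 and 13.28 to 13.37. Col1a1, Col1a2, Col3a1, Pdgfrb, Dcn and Lum did not pass the test, with differences between -0.16 and 0.17, although Col1a1 was called without day 5 replicate 2. The part of feeder cells in the fall of Lox was not tested.

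Naive pluripotency genes were mostly lower, and their core split. Of 19 measured, 12 were lower and 2 higher, with a median of -0.94, against -0.02 over all genes. Tcl1, a cofactor of the Akt kinase, was at 6.87, 7.14 and 7.01 at day 5, against 8.65, 8.58 and 8.65 at day 1 (-1.62). Gbx2, a homeobox gene downstream of Lif, differed by -1.46 and Zfp42 (Rex1), a standard naive marker, by -1.14. Neither overlapped between the days, which was so for 45.5% of all genes. Tbx3, a T-box factor (-0.87), Jam2, a junctional adhesion molecule (-1.26), the nuclear receptor Nr5a2 (-0.98) and Klf2 (-0.53) fell as well.

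Nanog went the other way. It had 11.83, 11.77 and 11.75 at day 5, against 11.23, 11.29 and 11.16 at day 1, a 1.47-fold rise (0.56, standard error 0.06, adjusted p = 1.2e-05). Across the days it averaged 12.03, 11.23, 11.41 and 11.78, lowest at day 1. Dppa3 (Stella) was the other gene called higher, at 0.28 (adjusted p = 0.033), and its call was lost under 9 alternatives, among them array weights and leaving out day 5 replicate 1 or 2. Klf4 (0.12), Klf5 (-0.14), Tfcp2l1 (-0.04), Prdm14 (-0.04) and Stat3 (0.05) did not pass the test. The 95% interval for Tfcp2l1 ran from -0.28 to 0.19, and that for Klf4 from -0.03 to 0.28. Over the 2 intervals the median of the naive list was -0.82 from day 1 to day 3 and -0.04 from day 3 to day 5.

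General pluripotency genes fell more evenly. Of 22 measured, 18 were lower and 1, the let-7 regulator Lin28b (0.35), was higher. The largest falls were in Dppa2 and Dppa4, neighbouring genes whose proteins act together on chromatin. Dppa2 was at 9.36, 9.59 and 9.29 at day 5, against 11.27, 11.30 and 11.30 at day 1 (-1.88, standard error 0.10, adjusted p = 3.3e-08). Dppa4 was at 9.46, 9.78 and 9.38, against 11.11, 11.10 and 11.09 (-1.56). Gdf3, a growth factor of the Tgf-beta family (-1.04), the ubiquitin ligase Rnf125 (-1.21), Utf1 (-0.77), the RNA-binding protein L1td1 (-0.70) and Krr1 (-0.41), a factor of ribosome assembly, also fell.

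The 2 factors at the centre of the network changed less. Pou5f1 had 12.05, 11.80 and 11.99 at day 5, against 12.43, 12.38 and 12.51 at day 1, a 1.41-fold fall (-0.50, adjusted p = 0.00011). Sox2 had 11.56, 11.73 and 11.58, against 12.05, 12.10 and 11.98, a 1.34-fold fall (-0.42, adjusted p = 0.00012). Zscan10 differed by -0.51. Sall4 (0.09, 95% interval -0.05 to 0.24) and Lin28a (0.02, 95% interval -0.11 to 0.15) did not pass the test. Gli2, an effector of hedgehog signaling, was measured at -0.16 (adjusted p = 0.082), the ubiquitin and ISG15 ligase Trim25 fell by 0.37, and Sumo3 by 0.17, a call that was lost under 7 alternatives.

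**Figure D3:**
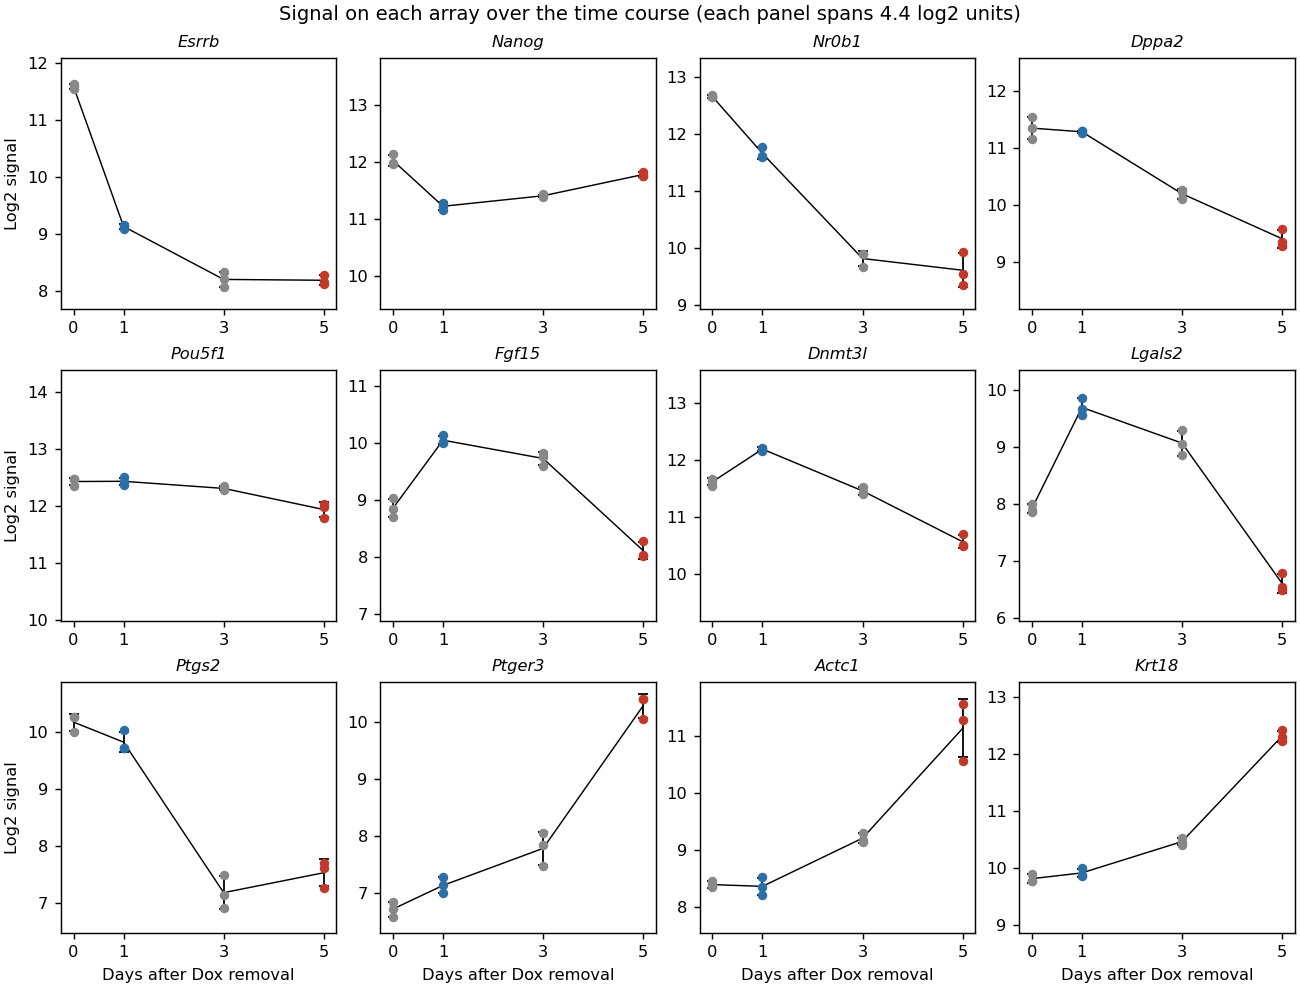
Log2 signal at days 0, 1, 3 and 5 of Dox withdrawal for 12 genes, with 1 point per array, bars for the SD of each day (n = 3) and a line through the day means. Esrrb was as low at day 3 (8.20) as at day 5 (8.19), Ptger3 was still at 7.78 at day 3, and Nanog was lowest at day 1 (11.23).

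Genes of the primed epiblast did not move as a block, with 5 of 16 higher and 7 lower. Fgf5, the usual marker of that state, was at 9.97, 9.29 and 9.58 at day 5, against 8.70, 8.72 and 8.67 at day 1 (0.92, adjusted p = 0.00037). Wnt8a rose by 1.09, Zic2 by 0.50, the claudin Cldn6 by 0.43 and the kinase Pim2 by 0.36. Pim2 was highest at day 3, where it averaged 11.59, against 11.04 at day 5 and 10.68 at day 1. Otx2, a homeobox factor of the epiblast, had 9.40, 9.86 and 9.48 at day 5, against 10.49, 10.45 and 10.45 at day 1, and fell by 0.88. Lef1, the Wnt effector, fell by 1.34, Foxd3 by 0.83 and Grhl2 by 0.72. The list had a median of 0.68 from day 0 to day 1, 0.11 from day 1 to day 3 and -0.35 from day 3 to day 5.

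Genes of DNA methylation were mostly lower, with Dnmt3a and Dnmt3l in front. Dnmt3a, a de novo methyltransferase, was measured at 9.34, 9.68 and 9.57 at day 5, against 11.27, 11.26 and 11.22 at day 1, a 3.29-fold fall (-1.72, standard error 0.08, adjusted p = 1.4e-08). Dnmt3l, its catalytically inactive partner, was at 10.52, 10.70 and 10.49, against 12.20, 12.16 and 12.22 (-1.63). Dnmt3b fell by 0.42, and it was highest at day 3 with a mean of 11.96. The oxidizing enzymes Tet1 and Tet2 fell by 1.06 and 1.01. Dnmt1, which maintains methylation, was at 0.11 and its partner Uhrf1 at 0.02, and neither passed the test. In all, 7 of 12 genes of the list were lower and 1, the methyl-CpG binding protein Mbd2 (0.37), was higher.

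Germline and meiosis genes fell with them. Of 23 measured, 15 were lower and 1 was higher, and the median was -0.64. Mael, which acts in the silencing of transposons, had 6.54, 6.94 and 6.77 at day 5, against 8.47, 8.37 and 8.51 at day 1 (-1.70, standard error 0.09, adjusted p = 4.2e-08). Tdrd12 of the piRNA pathway (-1.59), Hormad1 of the meiotic chromosome axis (-1.51), the transcription factor Sohlh2 (-1.52), the RNA-binding protein Dazl (-1.21) and Tex19.1 (-1.09) differed by more than 2-fold. Ddx4 (Vasa) fell by 0.74. Rhox6, a homeobox gene of the X chromosome, was the member called higher, at 9.18, 9.29 and 9.24, against 8.86, 8.78 and 8.58 (0.49). Sycp3 of the synaptonemal complex was at -0.10 and did not pass, and it had peaked at day 3 with a mean of 10.01.

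Polycomb repressive complex 2, which methylates histone H3 at repressed genes, had 5 of 11 genes lower and 1 higher. The accessory subunits Jarid2 (-0.64) and Mtf2 (-0.58) differed most, followed by the core subunit Eed (-0.36) the methyltransferase Ezh2 (-0.23) and Rbbp4 (-0.18), whose call was lost under 8 alternatives. Suz12 was at -0.12 (adjusted p = 0.12), and the histone chaperone Rbbp7 rose by 0.36. Genes of the 2-cell-like state had 5 of 9 members lower and none higher. Tmem92 fell by 0.65, Usp17lb by 0.71, Arg2 by 0.39 and Eif1a by 0.22, while the call for Zfp352 (-0.39) was lost under 7 alternatives. Usp17lb has close relatives that may share its signal.

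In contrast, genes of epithelial structure rose without exception among those called. Of 18 keratin and desmosome genes, 12 were higher and 0 lower, and the median was 0.66. Krt8, the partner of Krt18 in simple epithelia, was at 13.21, 13.03 and 13.13 at day 5, against 11.27, 11.34 and 11.40 at day 1 (1.78, standard error 0.10, adjusted p = 3.9e-08). Krt7 rose by 1.71. Dsp, the plaque protein that ties keratin to desmosomes, was measured at 10.67, 10.44 and 10.66, against 8.64, 8.53 and 8.53, a 4.07-fold rise (2.03, standard error 0.08, adjusted p = 5.2e-09). The desmosomal cadherin Dsc2 rose by 1.59, Perp by 1.35 and the plaque protein Pkp2 by 0.78. Dsg2, the desmoglein of simple epithelia, was at 0.03 and did not pass the test. The keratins changed little before day 3, with Krt8 at 11.43, 11.34, 11.64 and 13.12 on days 0, 1, 3 and 5.

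Genes of the actin cytoskeleton and targets of serum response factor (Srf) had the highest median of the 39 lists, 0.77, with 25 of 34 genes higher and 1 lower. Srf and its coactivators of the Mrtf family switch on genes of contractile actin fibres when monomeric actin is used up. Besides the muscle actins, the list held Cald1 (caldesmon), at 11.42, 11.25 and 11.41 at day 5, against 9.41, 9.66 and 9.49 at day 1 (1.84, standard error 0.08, adjusted p = 9.3e-09). Tagln (transgelin) rose by 1.83, the calponins Cnn1 and Cnn2 by 1.65 and 1.35, the filamin Flnc by 1.66, the tropomyosin Tpm1 by 1.47, Csrp1 by 1.14, the focal adhesion protein Vcl (vinculin) by 1.13 and Flna by 1.06. Acta2, the smooth muscle actin, had 12.44, 11.99 and 12.29, against 11.07, 11.28 and 11.25, a rise of 1.04, but it had dipped to 10.13 at day 3 after 11.64 at day 0.

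The rise did not take in every actin gene. Actg2, the enteric smooth muscle actin, had 6.49, 6.43 and 6.37 at day 5, against 6.87, 6.90 and 6.78 at day 1, a fall of 0.42 (adjusted p = 0.01). Actb, the cytoplasmic actin, was at 0.04 (95% interval -0.07 to 0.15), Cfl1 at -0.01, Pfn1 at 0.03 and Actn4 at 0.01, and none of these 4 passed the test. Srf itself rose by 0.29 (adjusted p = 0.0079) and its coactivator Mrtfa by 0.20 (adjusted p = 0.041, a call lost under 10 alternatives), while Mrtfb was at 0.17 (adjusted p = 0.06) and passed under 4 alternatives.

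Srf binds the CArG box, and 9 of the 31 genes of the list with a RefSeq promoter held one on either strand in the 250 bases before the start site (29.0%), against 439 of 27025 genes with a promoter in the table (1.62%) and 227 of 15614 genes tested here (1.45%). The list was chosen partly for known Srf targets, so a share above that of all promoters was built into it. For 6 of these genes 1 box is shown (of the pair in Srf, the one farther from the start site), with 10 bases on each side (build GRCm38.p6, capitals mark the box) because their mRNA levels differ widely in this comparison.
Actc1 (chr2:114052903-114052932, minus strand): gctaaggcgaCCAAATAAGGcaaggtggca
Acta1 (chr8:123894829-123894858, minus strand): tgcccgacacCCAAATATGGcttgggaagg
Cnn2 (chr10:79988534-79988563, plus strand): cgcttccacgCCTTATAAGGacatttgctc
Vcl (chr14:20929161-20929190, plus strand): cccactatgcCCTTATAAGGagcgccccgc
Srf (chr17:46556225-46556254, minus strand): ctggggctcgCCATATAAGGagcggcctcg
Fhl1 (chrX:56779571-56779600, plus strand): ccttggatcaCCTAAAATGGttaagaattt
Cnn2 and Vcl hold the same 10 letters and rose by 1.35 and 1.13. Among the other genes with a box, Fhl2 rose by 1.05 and Myl9 by 0.80, while Vil1 was at 0.16 and Fhl1 at -0.07 and did not pass the test. A match of letters is a description and no measured binding site.

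**Figure D4:**
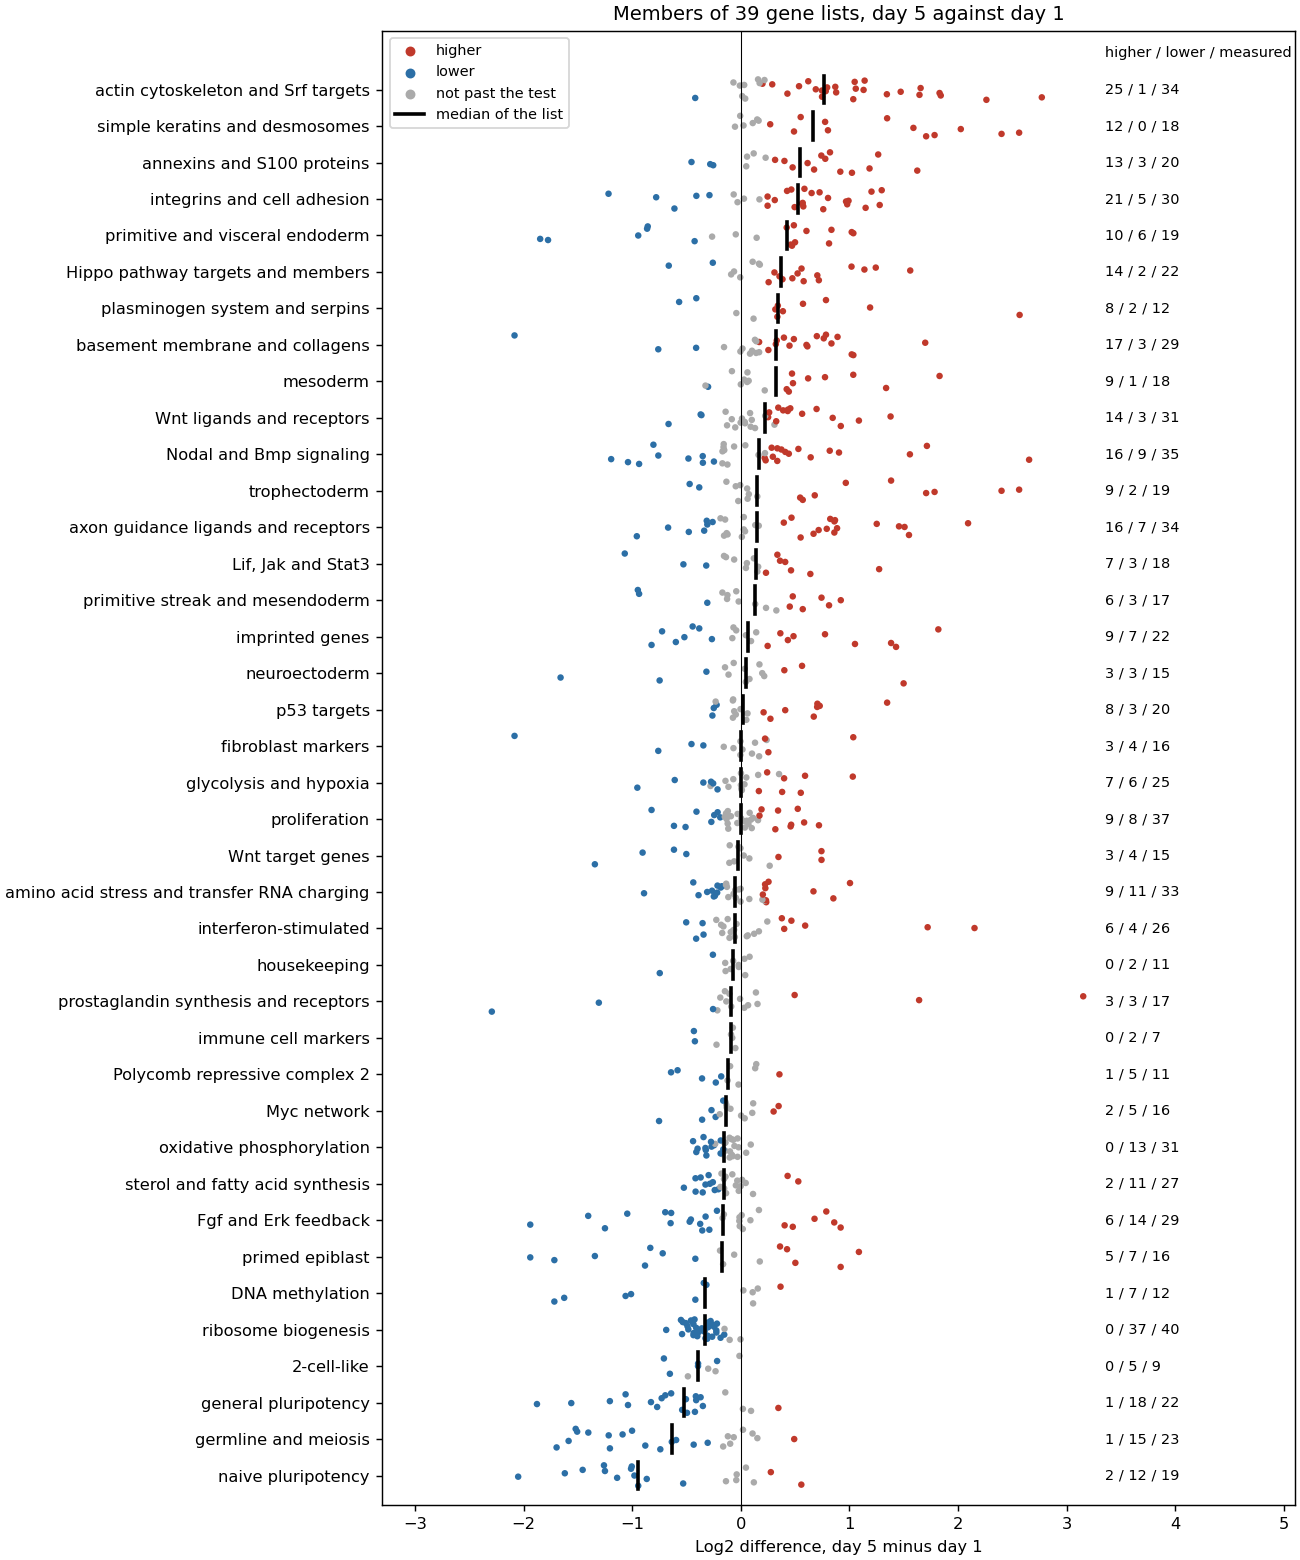
Log2 difference (day 5 minus day 1) of each measured member of the gene lists, with 1 point per gene and a bar at the list's median. The medians run from -0.94 for naive pluripotency to 0.77 for actin and Srf targets, and a thin line marks 0.

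The Hippo pathway, which restrains the coactivators Yap and Taz when cells are crowded or lie on a soft matrix, had 14 of 22 genes higher and 2 lower. Ccn2 (Ctgf), a target secreted into the matrix, was at 11.85, 12.01 and 11.97 at day 5, against 10.24, 10.39 and 10.52 at day 1, a 2.95-fold rise (1.56, standard error 0.09, adjusted p = 9e-08). Ccn1 (Cyr61) rose by 1.14, Amotl1 and Amotl2 by 1.24 and 1.02, and Ankrd1 by 0.56. Among the members of the pathway, the DNA-binding partner Tead1 rose by 0.72, the inhibitory kinase Lats2 by 0.70, Wwtr1 (Taz) by 0.58 and Yap1 by 0.26. Amot, the relative of Amotl1, fell by 0.66 and the upstream inhibitor Nf2 by 0.26. Amot had reached 9.23 at day 1, above its mean of 8.30 at day 0.

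Basement membrane genes rose, with 17 of 29 genes higher and 3 lower. Nid1 (nidogen), which links laminin to collagen, was measured at 11.40, 11.88 and 11.99 at day 5, against 10.05, 10.12 and 10.01 at day 1 (1.70, standard error 0.13, adjusted p = 5.9e-07). The type IV collagens Col4a1 and Col4a2, which share a promoter region, rose by 1.04 and 1.02. The laminin subunits Lamc1, Lama1 and Lamb1 rose by 0.83, 0.61 and 0.60, and Serpinh1, Plod1, Plod2 and P4ha1, which fold or hydroxylate collagen, by 0.78, 0.89, 0.70 and 0.76. The 3 genes that fell were Lox, Col5a2 (-0.76) and Col12a1 (-0.41), and the fibrillar collagens Col1a1, Col1a2 and Col3a1 did not pass the test. Of these lower genes Lox and Col5a2 are also fibroblast markers, whose levels are given above.

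Integrins and other adhesion molecules had 21 of 30 genes higher and 5 lower, with a median of 0.53. The tight junction claudins Cldn7 and Cldn4 rose 2.46-fold and 2.30-fold, the integrins Itga8, Itga3, Itgav and Itgb5 by 1.28, 1.15, 0.98 and 0.97 on the log2 scale, and the common beta subunit Itgb1 by 0.57. Itga3, part of a laminin receptor, had 10.96, 10.59 and 11.06 at day 5, against 9.65, 9.74 and 9.77 at day 1. Cdh1 (E-cadherin) rose by 0.31 and Epcam by 0.25. The members that fell were Tnc (tenascin-C), whose mean was 6.87 (SD 0.19, n = 3) at day 5, against 8.09 (SD 0.17, n = 3) at day 1 (-1.22), the mesenchymal cadherin Cdh11 (-0.78), Itga2 (-0.61), Icam1 (-0.41) and Cd44 (-0.29). Cdh2 (N-cadherin) was at 0.17 and did not pass, although it was called without day 5 replicate 2. Annexins, S100 proteins and calpains, which act at membranes with calcium, had 13 of 20 genes higher and 3 lower, with Anxa3 at 1.63, Capn6 at 1.27, Anxa5 at 1.19, Anxa1 at 1.02 and Anxa2 at 0.92. The 3 that fell were S100a4 (-0.45), Anxa11 (-0.28) and Anxa8 (-0.25), and the call for Anxa8 was lost under 7 alternatives. Anxa1 dipped to 9.05 at day 3 between 10.59 at day 1 and 11.62 at day 5.

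Mesoderm genes had 9 of 18 members higher and 1, Snai2 (-0.30), lower. Snai1, a repressor of E-cadherin, was measured at 9.85, 9.96 and 10.18 at day 5, against 8.63, 8.69 and 8.66 at day 1 (1.34, standard error 0.08, adjusted p = 7.9e-08). Mef2c rose by 0.78, Tbx20 by 0.62, Msx2 by 0.48, Bmp4 by 0.44 and Pdgfra by 0.42, and Tagln and Acta2 of the actin list are also members. Bmp4 had been at 7.49 at day 3. The call for Snai2 was lost when day 1 replicate 3 was left out. Defining factors of the lineage did not follow. Tbx6 differed by 0.03, Meox1 by -0.33, Hand1 by 0.06, Foxf1 by 0.06, Twist1 by -0.08 and Kdr by 0.22, and none of these 6 passed the test, although Meox1 passed under 5 alternatives.

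The primitive streak list was divided, with 6 of 17 members higher (35.3%) and 3 lower (17.6%), against 15.5% and 17.5% over all genes. Wnt3, the ligand that starts the streak, was at 7.71, 7.08 and 7.41 at day 5, against 6.40, 6.46 and 6.58 at day 1 (0.92, adjusted p = 0.00011). Eomes, a T-box factor of the streak and of trophoblast, was at 8.84, 7.75 and 8.48, against 7.72, 7.76 and 7.88. Its day 5 replicate 2 lay among the day 1 arrays. The call (0.57, adjusted p = 0.038) was lost when day 5 replicate 1 or 3 or any single day 1 array was left out (adjusted p = 0.057 to 0.16), and without day 5 replicate 2 the difference was 0.87 (adjusted p = 6.7e-05). Sp5 rose by 0.74, Fgf8 by 0.48, Sox17 by 0.81 and Foxa2 by 0.45. Hhex and Lefty1 fell by 0.95 and 0.94. Lhx1 was called lower as well (-0.31, adjusted p = 0.047), and 12 alternatives lost that call, among them quantile normalization and leaving out any of the day 5 arrays. Mixl1 (0.33), Gsc (0.23), Mesp1 (-0.04), Nodal (-0.12) and Evx1 (-0.02) did not pass the test. In Mixl1 as well, replicate 2 was low, with 7.50, 6.74 and 7.35 at day 5, against 6.68, 6.96 and 6.98 at day 1, and without that array Mixl1 and Gsc were called higher, by 0.56 and 0.30 (adjusted p = 0.00047 and 0.02). Gsc also passed under 9 other alternatives, and the call for Fgf8 was lost without day 5 replicate 1.

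Genes of the primitive and visceral endoderm, taken as 1 list, had 10 of 19 members higher and 6 lower. The members that rose included Col4a1, Col4a2, Lamb1 and Lamc1, which are also in the basement membrane list. Gata4 and Pdgfra are shared with the mesoderm list. Among transcription factors, Gata6 rose by 0.46, Gata4 by 0.47, Sox7 by 0.50 and Sox17 by 0.81. Sox17 was at 9.52, 9.78 and 9.71 at day 5, against 8.85, 8.87 and 8.86 at day 1. The largest falls were in Amn and Cubn. Amn and Cubn, which form the receptor for vitamin B12 with its carrier, were at 7.96, 8.01 and 8.20, against 9.91, 9.82 and 9.99 (-1.85, adjusted p = 1.2e-08), and at 10.72, 11.27 and 11.06, against 12.78, 12.81 and 12.78 (-1.77). Apoe fell by 0.94, Foxq1 and Hnf4a by 0.86 each and Dab2 by 0.43, while Afp (0.15) and Ttr (-0.26) did not pass. Ttr passed under 5 alternatives and Afp without day 1 replicate 1.

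Of 19 trophectoderm genes, 9 were higher and 2, Fgfr2 (-0.47) and Ascl2 (-0.38), lower, and 4 of those higher were the simple keratins. Gata3 had 7.47, 7.62 and 7.71 at day 5, against 6.82, 6.97 and 6.97 at day 1 (0.68), and Tfap2c rose by 0.55, Bmp8b by 0.97 and the imprinted gene Peg10 by 1.38. Cdx2, the defining factor of the lineage, was at -0.02 (95% interval -0.17 to 0.12) and Elf5 at 0.06 (95% interval -0.12 to 0.25), and neither passed the test. Neuroectoderm genes had 3 of 15 members higher and 3 lower, shares close to the 15.5% and 17.5% over all genes. Nes (nestin) rose 2.83-fold, with 9.23, 8.64 and 9.33 at day 5, against 7.57, 7.61 and 7.53 at day 1, and Sox11 and Map2 rose by 0.56 and 0.40. Neurod1, Pax6 and Tubb3 fell by 1.66, 0.75 and 0.32. Sox1 (0.05) did not pass.

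Among signaling genes, Wnt ligands and receptors had 14 of 31 members higher and 3 lower. The receptor Fzd2 was measured at 9.58, 8.90 and 9.49 at day 5, against 7.95, 7.85 and 8.04 at day 1 (1.38, adjusted p = 4e-06), the ligand Wnt11 rose by 0.85 and the coreceptor Ryk by 0.70. Wnt5a fell by 0.67, Fzd5 by 0.37 and Fzd4 by 0.36, and the call for Fzd4 was lost without day 1 replicate 1, day 1 replicate 2 or day 5 replicate 2. Of 15 target genes of the pathway, 3 were higher and 4 lower (26.7%), against 15.5% higher and 17.5% lower over all genes. Tnfrsf19 and Sp5 rose by 0.74 each and Rnf43 by 0.35, Lef1 fell by 1.34, Dkk1 by 0.90, Ccnd1 by 0.62 and Notum by 0.50, and Axin2, the standard readout of the pathway, was at 0.27 (adjusted p = 0.29). Without day 5 replicate 2 it was called higher, at 0.53 (adjusted p = 0.0039).

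Fgf signaling genes fell more often than they rose, with 14 of 29 lower and 6 higher. Fgf4, the main Fgf of ES cells, had 7.74, 8.18 and 7.94 at day 5, against 9.14, 9.30 and 9.16 at day 1 (-1.25, standard error 0.09, adjusted p = 4.8e-07). The feedback inhibitor Spry4 fell by 1.41, the Erk-responsive factors Etv4 and Etv5 by 1.05 and 0.64, Egr1 by 0.70 and the receptor Fgfr2 by 0.47. The receptor Fgfr1 rose by 0.86, the phosphatase Dusp5 by 0.68 and Ier3 by 0.79. Dusp6, the Erk phosphatase often used as a readout, was at -0.17 (adjusted p = 0.19).

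Nodal and Bmp signaling had 16 of 35 genes higher and 9 lower. The secreted Bmp antagonist Nog (noggin) was at 9.10, 9.31 and 9.63 at day 5, against 7.61, 7.55 and 7.74 at day 1, a 3.28-fold rise (1.71, adjusted p = 9e-08), and the ligand Bmp2 at 8.98, 9.20 and 9.23, against 7.66, 7.70 and 7.38 (1.56). Noggin and Bmp2 thus both rose, with the receptor Bmpr2 at 0.82, Bmp7 at 0.90 and the mediator Smad3 at 0.64. Inhba, the subunit of activin A, which follistatin binds, was at 7.08, 6.96 and 6.99, against 8.10, 8.37 and 8.15, a fall of 1.19. Skil, a target of the Nodal pathway, fell by 0.76, Grem1, another secreted Bmp antagonist, by 0.80 and Lefty1 by 0.94. The Bmp target Id3 rose by 0.53 and Id1 was at -0.15 and did not pass.

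Of 18 genes of the Lif pathway, 7 were higher, 3 lower and 8 did not pass. The kinase Jak2 was measured at 9.69, 9.67 and 9.78 at day 5, against 8.42, 8.55 and 8.33 at day 1, a 2.42-fold rise (1.27, standard error 0.08, adjusted p = 1.6e-07). Lif itself rose by 0.64 and its receptor Lifr by 0.23 (a call lost under 9 alternatives), while Socs3, the feedback target of Stat3, was at 0.16 (adjusted p = 0.063) and passed under 3 alternatives. The falls were those of Gfpt2 (-1.07), an enzyme of the hexosamine pathway, Bcl3 (-0.53) and Socs2 (-0.32). Of 17 prostaglandin genes 3 were higher, 3 lower and 11 did not pass, shares of 17.6% each way, against 15.5% and 17.5% over all genes. The receptors Ptger3 and Ptger4 (0.50) and the transporter Slco2a1 (1.64) rose, and Ptgs2, the phospholipase Pla2g4a (-1.31) and the synthase Ptges2 (-0.26) fell. Slco2a1 was at 10.62, 11.10 and 11.19, against 9.23, 9.30 and 9.45, and Pla2g4a at 6.53, 6.55 and 6.32, against 7.82, 7.84 and 7.66.

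Guidance genes, which steer cells and axons through semaphorins, ephrins and their receptors, had 16 of 34 members higher and 7 lower. Sema6d was at 8.47, 9.14 and 9.13 at day 5, against 6.84, 6.81 and 6.80 at day 1, a 4.27-fold rise (2.09, standard error 0.14, adjusted p = 2.3e-07). Efna5 rose by 1.55, Sema3c by 1.51, Sema3e by 1.46, Sema6a by 1.25 and the receptor Nrp2 by 0.87. Efna3, a relative of Efna5, fell by 0.96 and Sema3a by 0.67. Of the plasminogen system and the serpins, 8 of 12 genes were higher and 2 lower. Beside Plat, the urokinase receptor Plaur rose by 0.34 and the protease inhibitor Serpinb9, which has near copies in the mouse, by 1.19. Serpinf1 (-0.57) and Serpini1 (-0.41) fell, and Plau, the urokinase itself, was at 0.12 and did not pass.

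Ribosome biogenesis had the largest share of called members of the 39 lists. Of 40 ribosome biogenesis genes, 37 were lower and 0 higher, at modest size, with a median of -0.33. Rrn3, a starter of RNA polymerase I, was at 11.68, 11.73 and 11.71 at day 5, against 12.27, 12.28 and 12.22 at day 1 (-0.55, standard error 0.06, adjusted p = 7.3e-06). Rrp9 differed by -0.69, Bop1 by -0.54, Imp4 by -0.53, the polymerase subunit Polr1b by -0.49, Nhp2 by -0.44 and the methyltransferase Fbl by -0.31. Npm1 (-0.00), Ncl (-0.10) and Rrs1 (-0.15) did not pass the test. The mean log2 signal of the list was 11.03 to 11.09 on the day 5 arrays, against 11.38 to 11.43 on the day 1 arrays. Its median difference was 0.08 from day 0 to day 1, -0.20 from day 1 to day 3 and -0.14 from day 3 to day 5.

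**Figure D5:**
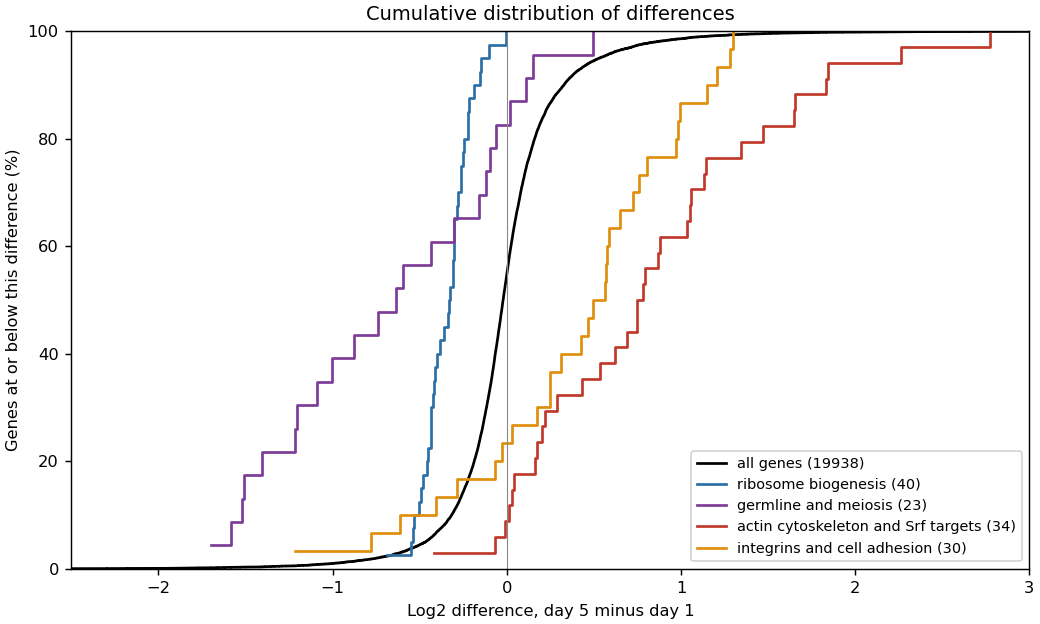
Cumulative share of genes against the log2 difference (day 5 minus day 1) for all 19938 genes and for 4 lists. The curve of the 40 ribosome biogenesis genes lies left of 0 and is steep, with a median of -0.33, while that of the actin list spreads to the right, with a median of 0.77.

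Myc, a driver of ribosome production, was at 9.81, 9.45 and 9.61 at day 5, against 10.35, 10.43 and 10.35 at day 1, a 1.68-fold fall (-0.75, standard error 0.10, adjusted p = 6.9e-05), and Mycn fell by 0.36. Myc had been lower still at day 3, with a mean of 9.30. The Myc network as a whole had 2 of 16 genes higher (12.5%), Mlxip (0.35) and Mxi1 (0.30), and 5 lower (31.2%). Those lower included Mga at -0.27, Max at -0.23 and Nme1 at -0.16. The calls for Nme1 and Mxi1 were lost under 12 and 5 alternatives. Oxidative phosphorylation had 13 of 31 genes lower and 0 higher, with Ndufv1 at -0.41, Sdhd at -0.40 and Uqcrc1 at -0.33, and a median of -0.15. Proliferation genes were balanced, with 9 of 37 higher (24.3%) and 8 lower (21.6%) and a median of 0.00. Over all genes the shares were 15.5% and 17.5%. Mki67 rose by 0.32 and Ccnd2 by 0.72, while Ccnd1 fell by 0.62, Ccne1 by 0.51 and the inhibitor Cdkn1c by 0.82.

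Housekeeping genes had a median of -0.07, against -0.02 over all genes, with 0 of 11 higher and 2, Hprt and Tfrc, lower. The share lower was 18.2%, against 17.5% over all genes. The difference of Tfrc was -0.26, a call lost under 6 alternatives. Hprt, often used for normalization, was at 8.43, 8.35 and 8.35 at day 5, against 9.11, 9.13 and 9.12 at day 1, a 1.68-fold fall (-0.75, adjusted p = 6.8e-07). Actb (0.04), Tbp (-0.14) and Ppia (-0.02) did not pass the test. Of 7 immune cell markers none was higher and 28.6% were lower. The lower ones were Lyz2 (-0.43) and Itgam (-0.42, lost without day 1 replicate 2 or day 5 replicate 3). Their mean log2 signals were 5.28 and 5.60 at day 5 and 5.71 and 6.02 at day 1.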

How the data were processed

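The authors scaled the arrays together with the Robust Multichip Average (RMA) in Expression Console, whose version the sources used here do not give. The values they deposited are on a log2 scale, with 1 value for each probe set on each of 12 arrays, and no further normalization was applied. Of 35557 probe sets, 21789 had 1 gene symbol and were averaged per symbol to 19938 genes, and the 13768 with several symbols or none entered a single alternative. Symbols came from the platform annotation, and 21698 were matched to RefSeq (GRCm38.p6). Signals ran from 1.61 to 14.69, and arrays have no read depth.

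The test was that of limma (version 3.58.1, R 4.3.3), a linear model of the 4 days with moderated variances (lmFit, eBayes). P-values were adjusted over all genes (Benjamini-Hochberg), and genes under 0.05 were called. The test was checked on simulated data.

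The comparison and the 39 gene lists were chosen with earlier results of these data known, and lists are described by counts and medians without a test. The naming rule took the 15 largest rises and falls among called genes whose arrays did not overlap (clone, olfactory and microRNA symbols left out), genes the study names, and per list the 5 called members with the smallest adjusted p and up to 3 moving against the majority. Other genes were named after their values were seen. Replicate numbers did not pair the arrays.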

Additional observations from a re-analysis of the deposited data

How the results depend on the processing

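Counts of genes depended on how strict the threshold was. With a Bonferroni threshold, 752 genes were higher at day 5 than at day 1 and 606 lower, and with a test against a 1.2-fold change 1100 were higher and 933 lower, since both ask for more than the main threshold. With every probe set tested on its own, 322 probe sets were lower by more than 2-fold, since more features entered. Leaving out 1 array at a time gave 2664 to 3167 genes higher and 2950 to 3610 lower, and 250 to 302 higher and 181 to 224 lower by more than 2-fold. The other alternatives kept these counts within 1.5 times, and the difference of Esrrb kept its direction and its call under each alternative. Of 322 called genes that the text or the naming rule covers, 188 kept the call under all 23 alternatives and 301 kept it under all but the Bonferroni threshold and the 1.2-fold test, and 0 changed sign. Of 58 such genes that were not called, 17 passed under at least 1 alternative, and the values of 19 changed sign without passing. The one list median to change sign by more than the spread between replicates was that of the prostaglandin genes, which ran from -0.088 to 0.0096 when single arrays were left out, with the positive value without day 5 replicate 3. The medians of the fibroblast, glycolysis, p53 and proliferation lists, close to 0, also changed sign under single alternatives, by less than that spread.

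Arrays of the same replicate number deviated from their day means with correlations of -0.045 to 0.068 between days 5 and 1, against -0.11 to 0.10 for different numbers, so the numbers did not pair the arrays. With the number as a replicate block, 2951 genes were higher and 3320 lower, Esrrb differed by -0.94, and 6 of the 322 genes, Dppa3, Larp7, Lifr, Mrtfa, Nme1 and Sumo3, lost their calls. The design has 3 arrays a day and no culture kept on Dox to day 5, and genes near background carry little signal: leaving out genes with a mean log2 signal under 6 left 14985 genes, of which 3190 were higher and 3655 lower.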

Other observations

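Imprinted genes, expressed from one parental copy, moved in both directions, with 9 of 22 higher at day 5 and 7 lower. Sgce was measured at 9.57, 9.75 and 9.67 at day 5, against 7.89, 7.81 and 7.82 at day 1, a 3.53-fold rise (1.82, standard error 0.10, adjusted p = 3.7e-08 from limma). Its neighbour Peg10 rose by 1.38, Igf2, the fetal growth factor, by 1.43, with 10.55, 10.35 and 10.56, against 9.04, 9.08 and 9.04, and Peg3 by 1.05. Igf2 stayed near 9 until day 3, where its mean was 9.12. Cdkn1c (-0.82), Phlda2 (-0.72) and Mest (-0.60) were lower. Cdkn1c and Phlda2, which restrain growth and lie near each other, had their highest means at day 1 (10.85 and 10.46), against 9.87 and 9.83 at day 0.

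Interferon-stimulated genes had 6 of 26 members higher (23.1%) and 4 lower (15.4%), against 15.5% and 17.5% over all genes. The largest rises among them were in guanylate-binding proteins. Gbp2b was at 10.29, 9.92 and 10.12 at day 5, against 7.89, 8.08 and 7.90 at day 1, a 4.45-fold rise (2.15, standard error 0.10, adjusted p = 1.7e-08), and Gbp3 rose by 1.72. The family has near copies that may share signal. Irf1 (0.06) and Ifit3 (-0.05) did not pass the test. Targets of p53 had 8 of 20 genes higher and 3 lower, with Perp at 1.35, Btg2 at 0.73 and Tnfrsf10b at 0.71, while Mdm2 (0.05) and Bbc3 (-0.07) did not pass. Sterol and fatty acid synthesis had 2 of 27 genes higher and 11 lower, with Lss at -0.52 and Acaca at -0.42, and Insig1, which restrains the pathway, at 0.53. Among glycolysis and hypoxia genes, 7 of 25 were higher and 6 lower. Egln1, an oxygen sensor, rose by 1.03 and the glucose transporter Slc2a1 by 0.55, and Pfkp fell by 0.95. Genes of amino acid stress and tRNA charging had 9 of 33 higher (27.3%) and 11 lower (33.3%). The arginine transporter Slc7a3 was at -0.89, Vldlr at 1.01 and the stress gene Ddit4 at 0.85. Ddit4 had been at 10.87 at day 3, against 10.41 at day 5 and 9.56 at day 1.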
